A study of Mus musculus with 10 samples.

Results

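Planar cell polarity is the coordination of cells within the plane of a tissue sheet, and 10 genes of its machinery and of the noncanonical WNT receptors were followed in the ectoderm of the mouse (Mus musculus) forelimb bud. They were chosen by name: the 2 Vangl genes, the 3 Celsr genes, Prickle1, Prickle2, Ror1, Ror2 and Ryk, which made up 10 of the 55401 genes in the deposited count table. RNA was sequenced from ectoderm peeled from forelimb buds at E9.75, a day of embryonic development, with about 2 buds in each sample. The groups used were 3 libraries of double knockouts (DKO) for Sp8 and Sp6, zinc finger factors of the ectoderm, and 3 libraries of wild-type (WT) littermates, with no further treatment. The sources used here do not give the strain or how the alleles were made. The 4 samples at E10.5, from Sp6 knockouts and WT littermates, were not analysed here. Libraries are called by group and by the number in their column (DKO 17, DKO 40, DKO 41, WT 32, WT 53 and WT 56), which is not a replicate number of the labels. Which embryo or litter each library came from is not in the labels. The p-values therefore reflect only how these libraries vary, and part of that variation may be technical.

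In the core planar polarity system, membrane protein complexes gather on opposite sides of each cell. Celsr proteins, large cadherins with many membrane passes, link neighbouring cells. On one side they join with Frizzled receptors and Dishevelled, on the other with the four-pass Vangl proteins and the cytoplasmic LIM-domain proteins of the Prickle family. Ror1, Ror2 and Ryk are single-pass receptors of the tyrosine kinase superfamily that bind WNT ligands, of which WNT5A is the best studied for Ror2. The pathway is known in the limb mostly for its part in the mesenchyme under the ectoderm, and in skin for the orientation of hair follicles by Celsr1 and Vangl2.

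The promoters of Celsr2 and Ror1 are shown because these were the members whose RNA passed the test between DKO and WT, and that of Ror2 because it is the paralog of Ror1. They are RefSeq sequences of build GRCm38.p6, from 250 bases before to 50 bases after the gene start, read on the gene's strand. Capitals mark GGGCGG or its reverse complement CCGCCC, the GC box that SP-family zinc finger proteins are known to bind. The windows are chr3:108415530-108415829 (minus strand) for Celsr2, chr4:100095541-100095840 (plus strand) for Ror1 and chr13:53286075-53286374 (minus strand) for Ror2.
Celsr2: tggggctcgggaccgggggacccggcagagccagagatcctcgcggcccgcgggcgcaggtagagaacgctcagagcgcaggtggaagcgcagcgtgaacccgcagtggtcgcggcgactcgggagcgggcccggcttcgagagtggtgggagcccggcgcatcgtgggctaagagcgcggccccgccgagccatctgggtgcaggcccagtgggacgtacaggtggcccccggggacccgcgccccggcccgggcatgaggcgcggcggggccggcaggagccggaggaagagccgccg
Ror1: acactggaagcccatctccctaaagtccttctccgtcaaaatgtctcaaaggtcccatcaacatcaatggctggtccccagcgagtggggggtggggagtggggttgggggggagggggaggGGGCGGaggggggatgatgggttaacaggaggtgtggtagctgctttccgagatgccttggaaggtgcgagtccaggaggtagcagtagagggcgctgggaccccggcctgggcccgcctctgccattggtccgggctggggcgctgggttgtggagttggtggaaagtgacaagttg
Ror2: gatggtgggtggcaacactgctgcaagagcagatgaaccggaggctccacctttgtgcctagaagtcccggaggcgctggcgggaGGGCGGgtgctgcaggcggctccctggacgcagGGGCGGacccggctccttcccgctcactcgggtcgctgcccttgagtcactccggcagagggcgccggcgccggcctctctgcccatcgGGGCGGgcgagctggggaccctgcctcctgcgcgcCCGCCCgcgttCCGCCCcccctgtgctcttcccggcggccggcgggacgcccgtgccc

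Celsr2 held 0 GC boxes in this window, at 76.3% G and C. Ror1 held 1, whose first base lay at -128 from the gene start, and Ror2 held 5. Of the 10 members, 8 had a promoter in the RefSeq table (not Vangl1 and Celsr1), and 7 of these 8 held at least 1 GC box in the first window listed for the gene. Counting every window listed for these members, 10 of 12 held at least 1 box, against 35.7% of all 32851 promoter windows. The first windows of the members held 60.7 to 76.3% G and C, all above the median of 52.7% over all windows. The share with a box was not compared at equal content of G and C. Vangl2 held 2 boxes, Celsr3 2, Prickle1 3, Prickle2 3 and Ryk 3. A match of letters shows neither binding nor use of a site.

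The libraries held between 64432348 and 87040786 counts. Of the targeted genes, Sp8 was at 5.86, 2.38 and 2.80 CPM (counts per 1000000 of the library's total, scaled by TMM) in DKO 17, DKO 40 and DKO 41, against 34.1, 43.2 and 31.3 CPM in WT 32, WT 53 and WT 56 (log2 fold change -3.29, SE 0.302, edgeR adjusted p = 0.000806). Sp6 was at 133.2, 13.9 and 76.9 CPM in the same DKO libraries and between 228.5 and 319.9 CPM in WT, and did not pass the test (edgeR adjusted p = 0.207). Each DKO library was under each WT library in Sp6, and DKO 17 held the most of the DKO libraries. Of the 3841 exon bases of Sp6, 3329 overlap the opposite-strand gene Gm11532, and reads without strand cannot be assigned to either gene, so these values may hold RNA of both. The tissue label was checked on 9 markers of embryonic ectoderm, all with counts in both groups, which summed to between 1921 and 2506 CPM in DKO and between 2362 and 2669 CPM in WT. Of these, Epcam and Cdh1 fell and Krt8 and Krt19 rose. All 8 markers of the apical ectodermal ridge, the thickened rim of the bud, fell. The ridge gene Fgf8 averaged 4.91 ± 7.48 CPM in DKO and 1259 ± 111.6 CPM in WT (SD, n = 3 each). Most of the DKO mean came from DKO 17, at 13.5 CPM, against 0.261 and 0.930 CPM in DKO 40 and DKO 41. The 9 limb mesenchyme markers summed to 205.4, 445.4 and 293.4 CPM in DKO 17, DKO 40 and DKO 41, against 388.0, 398.7 and 381.5 CPM in WT 32, WT 53 and WT 56. Col1a2 alone made up most of each WT sum, at 203.7, 316.2 and 266.8 CPM in WT 32, WT 53 and WT 56. The similar WT sums therefore do not show similar amounts of mesenchyme RNA. Among the 9 markers, Prrx1 was at 3.51, 23.3 and 12.8 CPM in the DKO libraries, against 29.0, 1.61 and 0.412 CPM in the WT libraries. Tbx5 was at 12.99, 2.81 and 0.0572 CPM in the WT libraries, so WT 32 stood apart in its group in both. Col1a2 and Pdgfra were not highest in WT 32. The 6 blood markers summed to 21.1, 82.4 and 732.0 CPM in the DKO libraries, against 0.116, 256.5 and 0 CPM in the WT libraries. Of 5 endothelial markers 3 had a count in each group and Cdh5 had 0 counts in all 6 libraries, and of 4 macrophage markers 3 had a count in DKO and 2 in WT, with Adgre1 at 0 counts in all 6. The endothelial markers summed to at most 1.36 CPM and the macrophage markers to at most 2.43 CPM in any library. The 4 markers of neural crest and muscle precursors, with Foxd3 at 0 counts in all 6 libraries, summed to between 3.45 and 13.4 CPM in DKO and between 1.34 and 4.80 CPM in WT.

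The comparison asks how the level of each gene differed in DKO ectoderm from that in WT ectoderm. Of the 10 members, all of which passed the filter on low counts, Celsr2 fell and Ror1 rose, and the other 8 did not pass the test. Over the 19126 genes tested 4.51% were called in either direction, 2.81% lower and 1.70% higher, at an edgeR adjusted p under 0.05. The libraries of the groups did not overlap for 3 of the 10 members, against 21.9% of the genes tested. Of these 3, Celsr2 and Vangl1 were lower in DKO, as were 11.3% of the genes tested, and Ror1 was higher, as were 10.6%. The median log2 fold change of the members was -0.02, against 0.03 for all genes tested. Each library pools RNA of the peeled sheet, so fewer cells of a kind and less RNA per cell cannot be told apart. Without both WT 32 and DKO 41, neither Celsr2 nor Ror1 passed the test, and both kept their signs (log2 fold changes -1.55 and 0.80, edgeR adjusted p = 0.0889 and 0.163). Those left out held the most Prrx1 in WT and the most blood RNA in DKO. The library with the most blood RNA in WT and that with the most Prrx1 in DKO were kept. With these fewer libraries, 377 genes were called over the whole table, against 863 with all libraries. The part of mesenchyme RNA, blood RNA or fewer libraries in the lost calls was not tested.

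**Figure D1:**
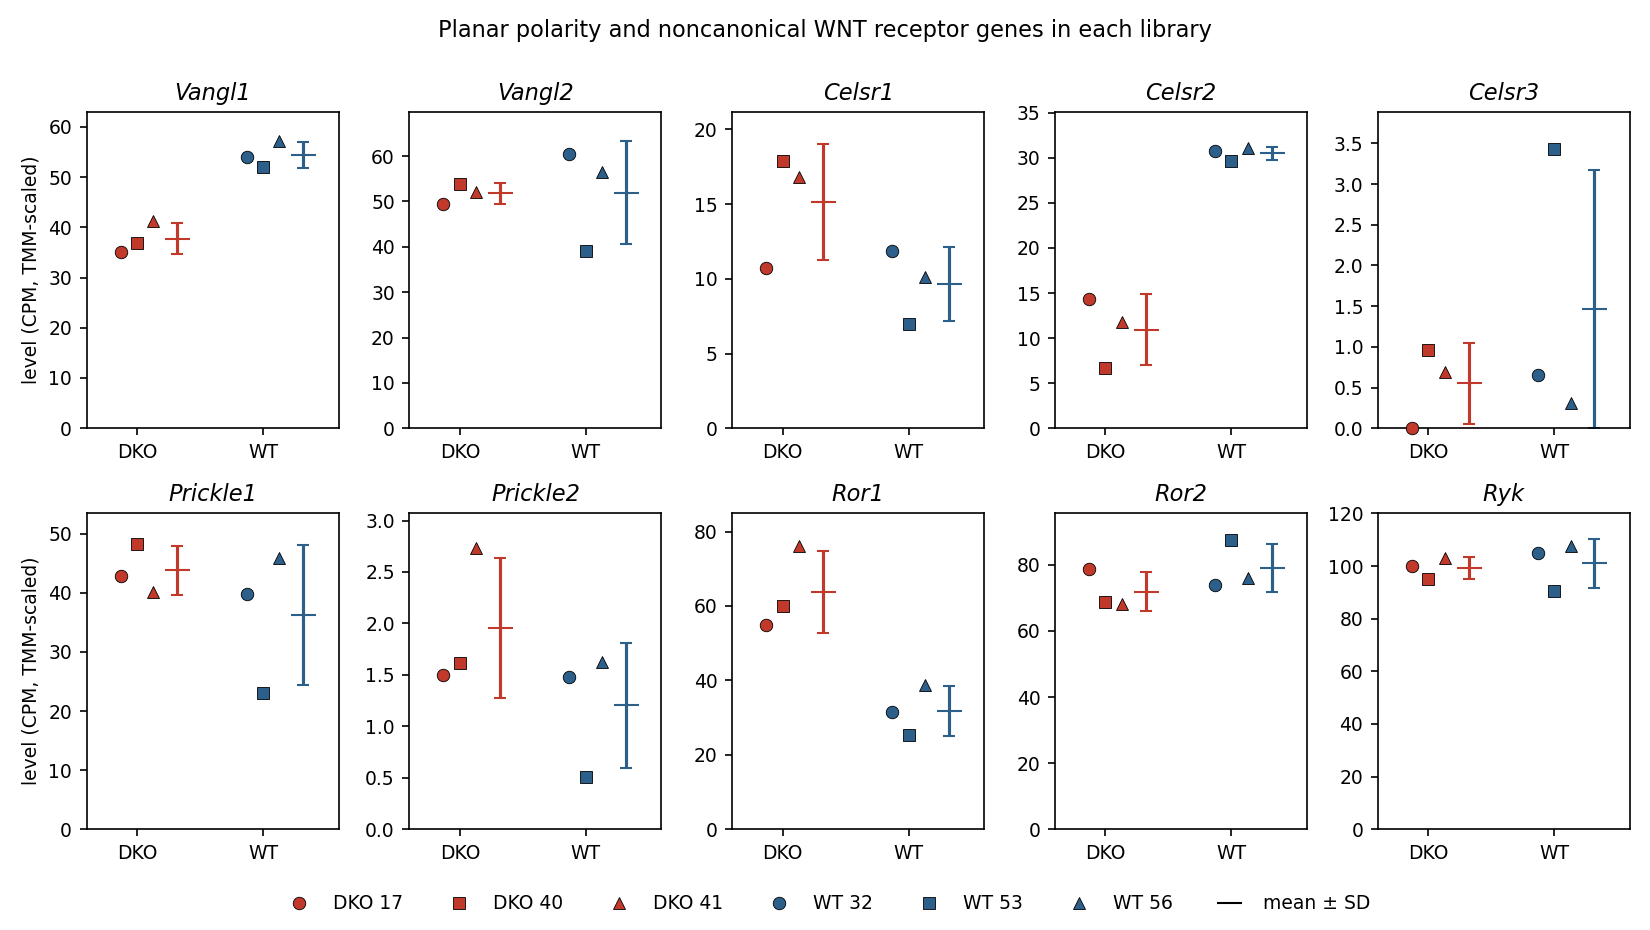
Level of each of the 10 genes in each library, in TMM-scaled CPM on linear axes from 0; each point is a library and the bar beside it the mean ± SD of 3 libraries, with the lower end stopped at 0. The DKO points of Celsr2 and Vangl1 all lie under the WT points, those of Ror1 all above them, and WT 53 lies apart in Vangl2, Prickle1, Prickle2 and Celsr3.

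Among the adhesion components, Celsr2 (ENSMUSG00000068740.13, GRCm38 chromosome 3, 108390851 to 108415552, minus strand) encodes a seven-pass cadherin studied mainly in the brain, where it acts in neuronal migration and in cilia of the ventricle lining. It had 14.4, 6.65 and 11.8 CPM in DKO 17, DKO 40 and DKO 41, against 30.8, 29.6 and 31.1 CPM in WT 32, WT 53 and WT 56. Each DKO library was under each WT library, and the WT libraries lay within 2 CPM of each other while DKO 40 was the lowest. It averaged 10.9 ± 3.93 CPM in DKO and 30.5 ± 0.768 CPM in WT (SD, n = 3 each), 2.77-fold lower, with a log2 fold change of -1.47 (SE 0.245, edgeR adjusted p = 0.0125). The call was lost without WT 32 or WT 56 (edgeR adjusted p = 0.0631 and 0.0656), with the log2 fold change between -1.71 and -1.22 over the 6 libraries left out in turn.

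Celsr1 (ENSMUSG00000016028.11, chromosome 15, 85898929 to 86033777, minus strand), the Celsr gene best known from skin and from closure of the neural tube, had 10.7, 17.9 and 16.8 CPM in DKO 17, DKO 40 and DKO 41, against 11.9, 6.98 and 10.1 CPM in WT 32, WT 53 and WT 56. DKO 40 and DKO 41 were above every WT library, while DKO 17 lay among them. Celsr1 did not pass the test, at a log2 fold change of 0.63 (SE 0.269, edgeR adjusted p = 0.26, unadjusted p = 0.0444). Its 95% normal interval ran from 0.10 to 1.16. Celsr3 (ENSMUSG00000023473.13, chromosome 9, 108826320 to 108852969, plus strand), known mainly for the guidance of axons, was low and varied widely between libraries. It had 0, 74 and 62 counts in DKO 17, DKO 40 and DKO 41, against 57, 217 and 27 counts in WT 32, WT 53 and WT 56, and 0 counts in DKO 17 allow up to 0.0360 CPM. Most of the WT counts came from WT 53, and without it the log2 fold change was 0.18 in place of -1.24 (SE 0.998, edgeR adjusted p = 0.589). Its exons share 65 bases with the miRNA gene Gm23156 on the same strand.

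The make-up of each gene family was also compared within each library, as shares of the family's counts per kilobase of exon, which do not depend on the scaling between libraries. The shares come from the same counts as the fold changes above and are no independent evidence. Celsr1 made up 43.9%, 71.2% and 58.6% of the family in DKO 17, DKO 40 and DKO 41, against 28.3%, 18.2% and 25.3% in WT 32, WT 53 and WT 56. The shares did not overlap, and Celsr1 was the larger part in DKO 40 and DKO 41, whereas Celsr2 was the larger part in DKO 17 and in all 3 WT libraries. The mean share of Celsr1 was 57.9 ± 13.7% in DKO and 23.9 ± 5.21% in WT (SD, n = 3 each), 34.0 percentage points apart. The exact permutation test gave p = 0.1, two-sided, which is the smallest that 3 libraries against 3 can give (0.133 adjusted over the 4 families).

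**Figure D2:**
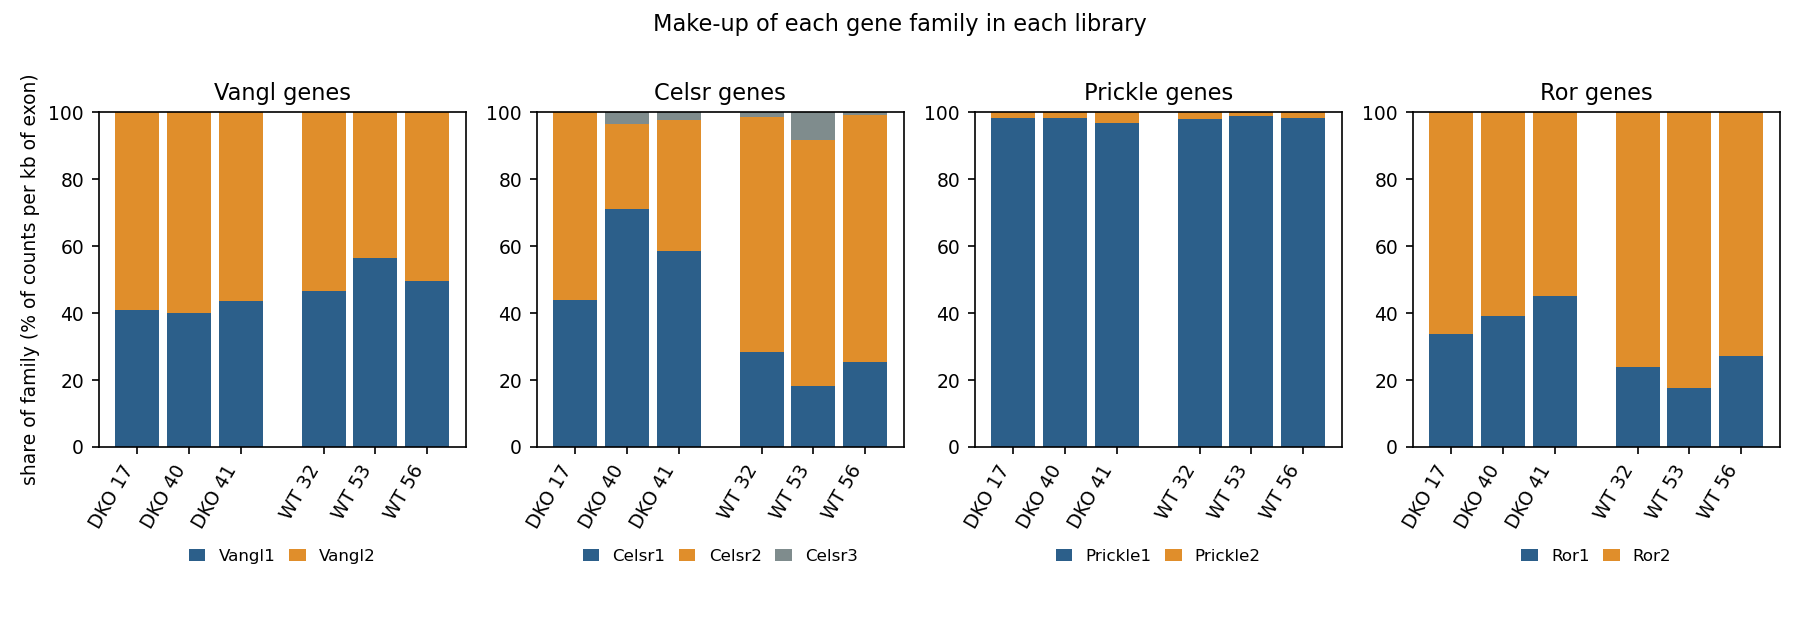
Stacked bars give the share of each gene in its family's counts per kilobase of exon (%), one bar per library, DKO libraries left and WT libraries right. Celsr1 holds 43.9 to 71.2% of the Celsr family in DKO and 18.2 to 28.3% in WT, Ror1 holds 33.9 to 45.2% and 17.5 to 27.3% of the Ror genes, and Prickle1 over 96% of its pair in every library.

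The Vangl genes encode the four-pass membrane scaffolds that recruit Prickle. Vangl1 (ENSMUSG00000027860.15, chromosome 3, 102153583 to 102204693, minus strand) had 35.1, 36.9 and 41.2 CPM in DKO 17, DKO 40 and DKO 41, against 53.9, 52.0 and 57.2 CPM in WT 32, WT 53 and WT 56. Every DKO library was under every WT library, with means of 37.8 ± 3.14 CPM in DKO and 54.4 ± 2.60 CPM in WT (SD, n = 3 each). Vangl1 missed the threshold in edgeR, at a log2 fold change of -0.53 (SE 0.13, interval -0.78 to -0.27, adjusted p = 0.058). With DESeq2 it passed (log2 fold change -0.54, adjusted p = 0.00183), and it stayed uncalled in the other 11 of 12 alternatives. DESeq2 called 1737 genes over the whole table, against 863 in the main fit. Of its exon bases, 8 overlap those of the antisense gene Gm16160, from which reads without strand cannot be separated.

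Vangl2 (ENSMUSG00000026556.15, chromosome 1, 172000960 to 172028444, minus strand), the paralog mutated in the looptail mouse, had 49.4, 53.9 and 52.2 CPM in DKO 17, DKO 40 and DKO 41, against 60.4, 39.0 and 56.4 CPM in WT 32, WT 53 and WT 56. The DKO libraries all fell inside the WT range. The fit put Vangl2 at a log2 fold change of -0.01 (SE 0.172, interval -0.35 to 0.33, edgeR adjusted p = 0.985). That sign turned under other settings. Vangl1 made up 41.02%, 40.03% and 43.57% of the pair per kilobase of exon in DKO 17, DKO 40 and DKO 41, against 46.6%, 56.6% and 49.7% in WT 32, WT 53 and WT 56. These shares did not overlap either (41.5 ± 1.83% in DKO and 51.0 ± 5.10% in WT, SD, n = 3 each; exact two-sided permutation p = 0.1, 0.133 adjusted over the 4 families).

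The Prickle genes encode cytoplasmic partners of Vangl. Prickle1 (ENSMUSG00000036158.12, chromosome 15, 93499114 to 93595891, minus strand) had 42.9, 48.3 and 40.2 CPM in DKO 17, DKO 40 and DKO 41, against 39.9, 23.1 and 45.9 CPM in WT 32, WT 53 and WT 56. The groups overlapped, and WT 53 was the lowest. Prickle1 did not pass the test, at a log2 fold change of 0.26 (SE 0.229, interval -0.19 to 0.71, edgeR adjusted p = 0.628), and stood at 0.03 without WT 53. Prickle2 (ENSMUSG00000030020.13, chromosome 6, 92370908 to 92706155, minus strand), a paralog studied mostly in neurons, was at 1.5, 1.62 and 2.73 CPM in DKO 17, DKO 40 and DKO 41, against 1.48, 0.505 and 1.63 CPM in WT 32, WT 53 and WT 56. The groups overlapped, and the test was not passed (log2 fold change 0.64, SE 0.454, interval -0.25 to 1.53, edgeR adjusted p = 0.525). Prickle1 held 97.8 ± 0.934% of the pair per kilobase of exon in DKO and 98.4 ± 0.408% in WT (SD, n = 3 each; exact two-sided permutation p = 0.6).

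Of the WNT-binding receptors, Ror1 (ENSMUSG00000035305.5, chromosome 4, 100095791 to 100444765, plus strand) encodes a receptor with an immunoglobulin-like, a Frizzled-like and a kringle domain outside the cell. It had 54.9, 60.04 and 76.1 CPM in DKO 17, DKO 40 and DKO 41, against 31.5, 25.3 and 38.7 CPM in WT 32, WT 53 and WT 56. Every DKO library was above every WT library, and DKO 41 was the highest. Ror1 averaged 63.7 ± 11.1 CPM in DKO and 31.8 ± 6.71 CPM in WT (SD, n = 3 each), 1.99-fold higher, with a log2 fold change of 0.995 (SE 0.191, edgeR adjusted p = 0.0226). The call was lost without DKO 40, DKO 41, WT 32 or WT 53 (edgeR adjusted p between 0.055 and 0.119), while the log2 fold change stayed between 0.83 and 1.15 with each library left out in turn.

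Ror1 is also expressed in limb mesenchyme, so mesenchyme markers are given beside it. The mesenchyme genes Prrx2 and Twist2 were at 65.4 to 174.3 and 12.3 to 67.1 CPM in DKO, against 18.5 to 49.4 and 0.549 to 7.39 CPM in WT, and did not pass the test (edgeR adjusted p = 0.0906 and 0.078). Pdgfra was at 2.57, 10.1 and 10.3 CPM in DKO 17, DKO 40 and DKO 41, against 67.8, 37.4 and 94.5 CPM in WT 32, WT 53 and WT 56, and fell. Col1a2 was at 99.7, 161.6 and 173.2 CPM in the DKO libraries, against 203.7, 316.2 and 266.8 CPM in the WT libraries. Col1a2 and Tbx15 were lower in every DKO library and did not pass the test (edgeR adjusted p = 0.0704 and 0.0884), and the other 4 markers of the list overlapped between the groups. Within DKO, Ror1, Pdgfra and Col1a2 were lowest in DKO 17 and highest in DKO 41, and Prrx1, Prrx2 and Twist2 were highest in DKO 40. Within WT, Ror1 and Pdgfra were lowest in WT 53 and highest in WT 56, Col1a2 was highest in WT 53, and Prrx1, Prrx2 and Twist2 were highest in WT 32. Exons of Twist2 share 1477 bases with the antisense gene Gm29100, and those of Pdgfra also overlap opposite-strand genes. The markers did not share one order of libraries, and Pdgfra was highest in WT 56, where Prrx1 was at 0.412 CPM. They therefore give no single measure of mesenchyme RNA, and its amount in each group was not determined. The part of mesenchyme or blood RNA in the rise of Ror1 was not tested. Sox10, a neural crest gene, was at 10.9, 12.5 and 3.21 CPM in DKO 17, DKO 40 and DKO 41, against 1.44, 4.26 and 0.767 CPM in WT 32, WT 53 and WT 56, and its part was not tested either.

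Ror2 (ENSMUSG00000021464.14, chromosome 13, 53109312 to 53286124, minus strand), the receptor mutated in inherited brachydactyly and Robinow syndrome in humans, had 78.9, 68.8 and 68.1 CPM in DKO 17, DKO 40 and DKO 41, against 73.8, 87.5 and 76.0 CPM in WT 32, WT 53 and WT 56. The groups overlapped, with a log2 fold change of -0.14 (SE 0.127, edgeR adjusted p = 0.654) and an interval from -0.38 to 0.11. Ror1 made up more of the pair, at 33.9%, 39.1% and 45.2% of the counts per kilobase of exon in DKO 17, DKO 40 and DKO 41, against 23.9%, 17.5% and 27.3% in WT 32, WT 53 and WT 56. The means were 39.4 ± 5.63% in DKO and 22.9 ± 4.95% in WT (SD, n = 3 each), without overlap (exact two-sided permutation p = 0.1, 0.133 adjusted over the 4 families). Ryk (ENSMUSG00000032547.12, chromosome 9, 102834917 to 102908305, plus strand), a WNT receptor with an inactive kinase domain, had 100.1, 94.9 and 103.0 CPM in DKO 17, DKO 40 and DKO 41, against 105.0, 90.4 and 107.6 CPM in WT 32, WT 53 and WT 56. The DKO libraries lay inside the WT range, with a log2 fold change of -0.03 (SE 0.117, edgeR adjusted p = 0.941) and an interval from -0.25 to 0.20.

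**Figure D3:**
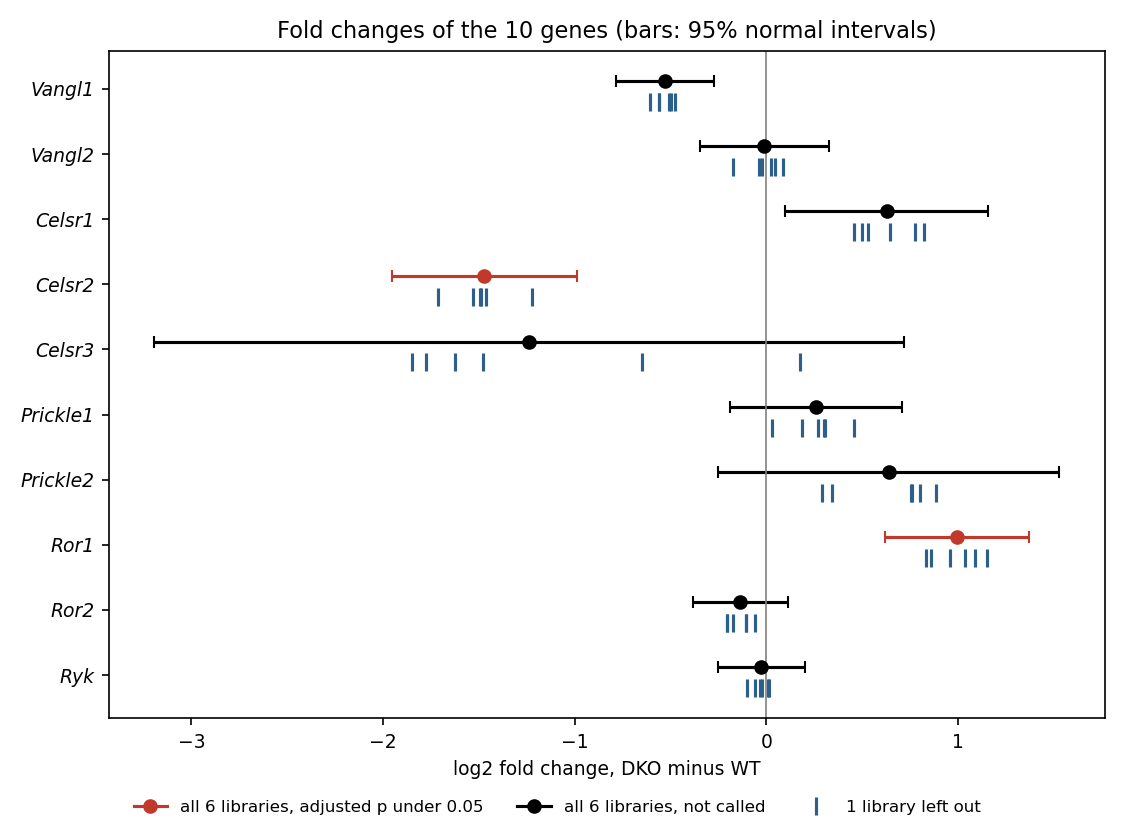
Log2 fold change of each gene, DKO minus WT: dots with bars of 95% normal intervals are the fit of all 6 libraries, red where the edgeR adjusted p was under 0.05, and blue ticks are the same value with 1 library left out. Only Celsr2 (-1.47) and Ror1 (0.995) are red, and the ticks of Celsr3 run from -1.85 to 0.18.

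Levels of different genes were compared per kilobase of exon. In DKO the order ran Ryk (21.9 ± 0.905 CPM per kilobase, SD, n = 3), Ror2 (17.0 ± 1.42), Ror1 (11.1 ± 1.92), Prickle1 (10.1 ± 0.949), Vangl2 (7.41 ± 0.331), Vangl1 (5.28 ± 0.439), Celsr1 (1.38 ± 0.350), Celsr2 (0.950 ± 0.342), Prickle2 (0.226 ± 0.0788) and Celsr3 (0.0459 ± 0.0413). In that order the ranges of Ror1 and Prickle1 overlapped, as did those of Celsr1 and Celsr2. In WT the order ran Ryk (22.3 ± 2.05 CPM per kilobase), Ror2 (18.6 ± 1.74), Prickle1 (8.35 ± 2.72), Vangl1 (7.60 ± 0.364), Vangl2 (7.43 ± 1.63), Ror1 (5.52 ± 1.17), Celsr2 (2.65 ± 0.0667), Celsr1 (0.877 ± 0.225), Prickle2 (0.140 ± 0.0706) and Celsr3 (0.122 ± 0.142). There Ryk and Ror2 overlapped, and so did each pair of neighbours from Prickle1 to Ror1, and Prickle2 with Celsr3. Ror1 had rank 3 in DKO and rank 6 in WT per kilobase of exon, and rank 5 in DKO and rank 6 in WT per kilobase of coding sequence. On the coding scale Ryk stayed the highest and Celsr3 the lowest in each group, but Vangl2 had rank 2 in DKO and Vangl1 rank 2 in WT.

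WT 53 often stood at the edge of its group. It was the lowest of the WT libraries for 8 of the 10 members and the highest for the other 2, Celsr3 and Ror2. Over all genes tested it was the lowest for 39.6% and the highest for 38.1%. This library also had the smallest total.

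The 3 genes whose pattern over the 6 libraries was most like that of Celsr2, by Euclidean distance of centred log2 CPM, were Kazn (distance 0.203), Sptlc3 (0.408) and Selenbp1 (0.416). Kazn was at 17.2 ± 5.38 CPM in DKO and 45.8 ± 3.92 CPM in WT (SD, n = 3 each). Sptlc3 was at 6.16 ± 2.86 CPM in DKO and 19.6 ± 1.64 CPM in WT, and Selenbp1 at 9.90 ± 2.30 CPM in DKO and 32.8 ± 1.18 CPM in WT. In Kazn, Sptlc3 and Selenbp1, as in Celsr2, DKO 40 was the lowest and DKO 17 the highest of the DKO libraries. This order and the lower level in DKO belong to the pattern by which the genes were chosen, and are no separate result.

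Other genes of the same pathway were taken from a list of 39, of which 38 were tested and Prickle4 had 0 counts in each library. Of the 38, the ligand Wnt5a, the adaptor Ankrd6 and the four-jointed homologue Fjx1 fell and Nkd1 rose, and the other 34 did not pass the test, so 10.53% were called, against 4.51% of all genes tested. Their median log2 fold change was -0.20, against 0.03 for all genes tested. The list was chosen with earlier results of these data known, so neither contrast is a test of the pathway. Wnt5a, a ligand of Ror2 that is also among the 8 ridge markers, had 53.7, 19.6 and 29.3 CPM in DKO 17, DKO 40 and DKO 41, against 247.7, 280.3 and 297.0 CPM in WT 32, WT 53 and WT 56. No library of the groups came near the other group, and the log2 fold change of -3.00 (SE 0.305, edgeR adjusted p = 0.00133) was past the threshold with any 1 library left out, at -3.48 to -2.73. The antisense gene Gm2670 shares 358 bases of exon with Wnt5a.

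Ankrd6, the vertebrate Diversin, which binds Dishevelled, had 9.65, 6.17 and 19.1 CPM in DKO 17, DKO 40 and DKO 41, against 38.6, 40.2 and 46.9 CPM in WT 32, WT 53 and WT 56. It was lower in every DKO library, 3.56-fold by the fit (log2 fold change -1.83, SE 0.327, edgeR adjusted p = 0.0169). The call was lost with any 1 library but DKO 41 left out (edgeR adjusted p from 0.051 to 0.0802). Fjx1, whose fly homologue four-jointed is a kinase of the Fat and Dachsous cadherins, had 130.6, 50.7 and 96.7 CPM in DKO 17, DKO 40 and DKO 41, against 284.4, 333.0 and 333.8 CPM in WT 32, WT 53 and WT 56. Its DKO libraries were all lower, with a log2 fold change of -1.77 (SE 0.281, edgeR adjusted p = 0.00994, and 0.0527 without WT 56). Nkd1, a Dishevelled-binding inhibitor of WNT signalling, had 89.1, 73.7 and 49.4 CPM in DKO 17, DKO 40 and DKO 41, against 35.9, 32.7 and 31.0 CPM in WT 32, WT 53 and WT 56. It was higher in every DKO library, with a log2 fold change of 1.09 (SE 0.211, edgeR adjusted p = 0.023), and the call was lost without DKO 40 or any 1 WT library (edgeR adjusted p from 0.0738 to 0.129).

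The remaining ligands on the list were not called by edgeR, and DESeq2 called Wnt11 and Wnt4 lower (adjusted p = 0.011 and 0.00785). DESeq2 called more genes over the whole table, 1737 against 863 by edgeR. Wnt11 was at 16.7 ± 11.5 CPM in DKO and 48.2 ± 17.5 CPM in WT (SD, n = 3 each; edgeR adjusted p = 0.0971), Wnt4 at 90.6 ± 28.4 CPM in DKO and 157.5 ± 9.78 CPM in WT (adjusted p = 0.0579), each without overlap between the groups. Of the 4 Frizzled receptors on the list, 0 were called by edgeR and 2 had an unadjusted p under 0.05. Over all 19126 genes tested, 3448 had an unadjusted p under 0.05. Fzd7 was at 66.0 ± 2.79 CPM in DKO and 86.2 ± 7.05 CPM in WT (edgeR adjusted p = 0.117), lower in every DKO library, and DESeq2 called it (adjusted p = 0.0229). Fzd2 was at 158.9 ± 40.7 CPM in DKO and 117.8 ± 8.59 CPM in WT (edgeR adjusted p = 0.23), higher in every DKO library. The receptors best known from planar polarity overlapped between the groups. Fzd3 was at 50.7 ± 5.90 CPM in DKO and 55.3 ± 1.03 CPM in WT (adjusted p = 0.698), and Fzd6 at 62.7 ± 27.8 CPM in DKO and 74.0 ± 12.2 CPM in WT (adjusted p = 0.734). The co-receptor Ptk7 was at 165.6 ± 43.2 CPM in DKO and 223.6 ± 28.9 CPM in WT (adjusted p = 0.257), and the scaffold Scrib at 81.2 ± 11.5 CPM in DKO and 76.3 ± 15.6 CPM in WT (adjusted p = 0.853). The cadherin Fat1 was at 97.3 ± 3.35 CPM in DKO and 63.8 ± 14.1 CPM in WT (edgeR adjusted p = 0.0775), higher in every DKO library, and DESeq2 called it (adjusted p = 0.0273), with 487 exon bases shared with the antisense gene Gm2366. The Dishevelled genes, which relay Frizzled signals, did not pass the test. Their log2 fold changes were -0.16 for Dvl1 (interval -0.57 to 0.26), -0.28 for Dvl2 (-0.54 to -0.01) and 0.03 for Dvl3 (-0.33 to 0.39), with edgeR adjusted p-values of 0.771, 0.33 and 0.956. The 10 effector genes run from the Fuz, Intu and Wdpcp proteins of the cilium base to the small GTPases Rhoa and Rac1. Of these, 0 were called by edgeR and 0 by DESeq2. Rhoa alone among them had an unadjusted p under 0.05, as did 3448 of the 19126 genes tested.

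**Figure D4:**
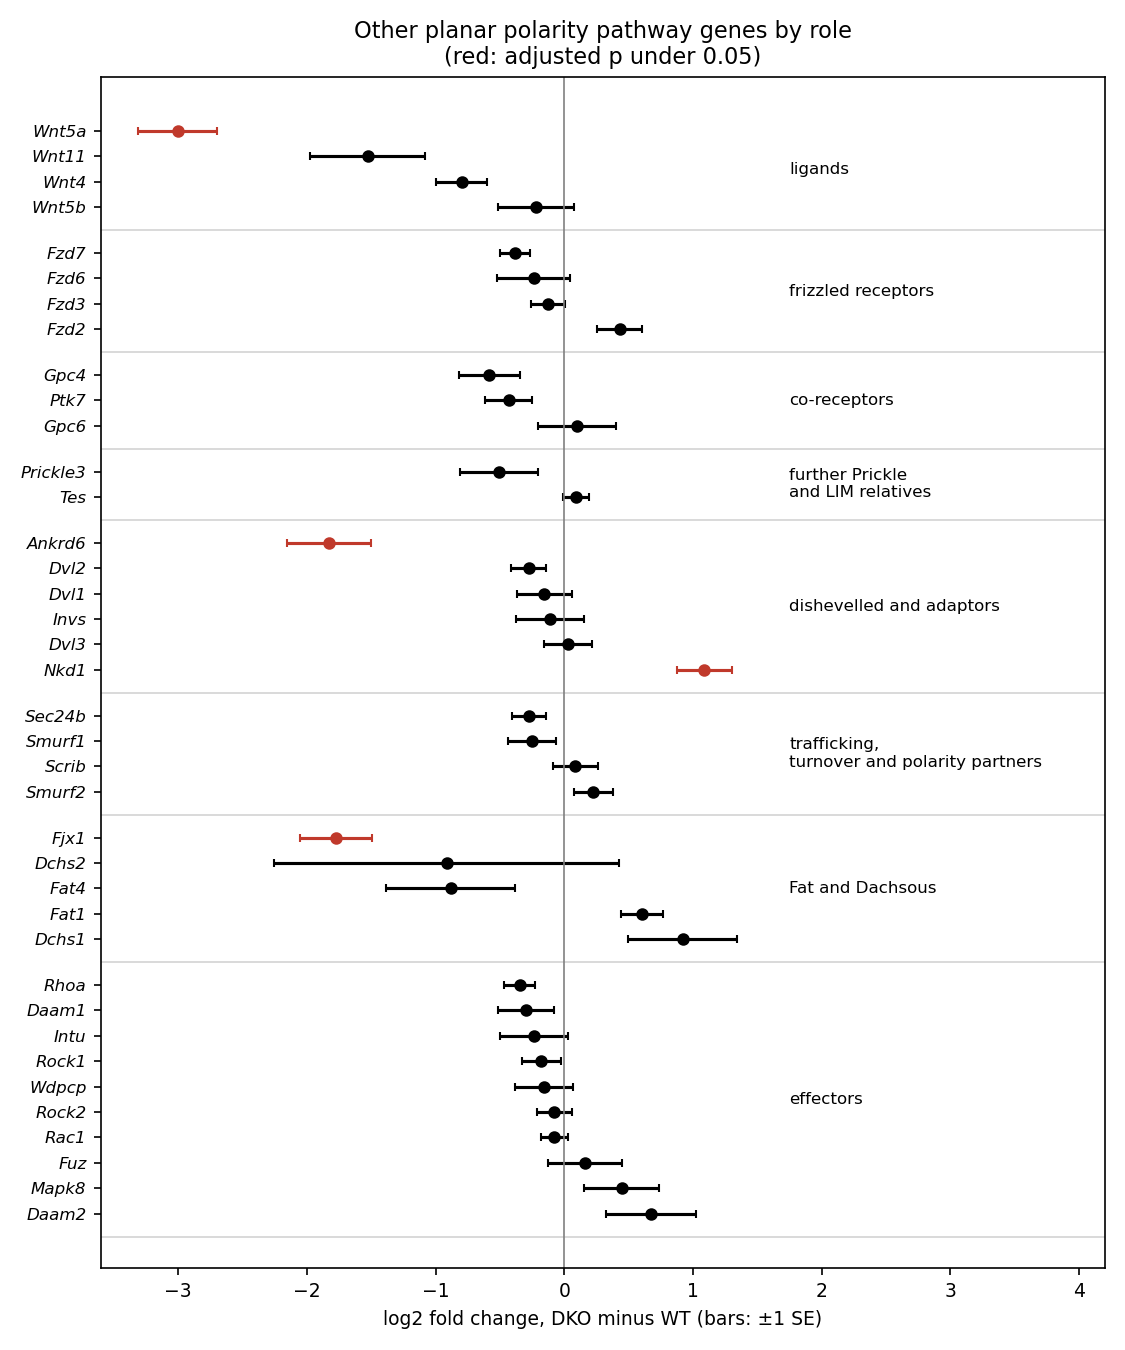
Log2 fold change, DKO minus WT, of the 38 other pathway genes tested, grouped by role, with bars of ±1 SE and red dots for an edgeR adjusted p under 0.05. Wnt5a (-3.00), Ankrd6 (-1.83) and Fjx1 (-1.77) lie left of 0 and Nkd1 (1.09) right of it.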

How the data were processed

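RNA counts of the 3 DKO and 3 WT libraries at E9.75 were used. The values deposited by the authors are raw counts, whole numbers for each gene. Tools named per the submitters' processing notes are HISAT2, StringTie, Cufflinks, fastp, FastQC and DESeq2, and the builds named there are mm10 and GRCm38. The sources used here do not give versions, roles or the step that counted reads. Per the labels' protocols, ectoderm was peeled after 20 min in 0.25% trypsin on ice, and libraries were made with SMART-Seq v4 and Nextera XT, which record neither strand nor molecular identifiers. Floors for counts of 0 (3 counts) therefore cover counting error only.

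Levels are CPM scaled by TMM over the genes kept. Changes were tested with edgeR 4.0.16 in R 4.3.3 (filterByExpr, TMM, glmQLFit with robust=TRUE and legacy=FALSE, quasi-likelihood F test, tested on simulated data), with Benjamini-Hochberg adjustment over 19126 genes and calls at an adjusted p under 0.05. In that simulation, 19 of 50 genes given a log2 fold change of -1 were called, and 17 of 50 given 1. At -2 and 2, 40 of 50 and 41 of 50 were called. Of 18926 genes given no change, 13 were called. The setting legacy=FALSE was taken with its effect on the count of calls known. Each SE is the absolute log2 fold change over the root of the F statistic. The 95% normal intervals (±1.96 SE) allow neither for the few libraries nor for the number of genes. Lengths, positions and overlaps came from GENCODE M21 (GRCm38), which matched 55141 of 55401 identifiers. No pair of libraries of a group agreed within counting noise (chi-square per degree of freedom of 54.6 or more). Technical variation between libraries can also exceed counting noise, so this does not show that they came from different embryos. All 6 were kept as samples because each has its own column.

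The members and lists were chosen with earlier results of these data known. The rule names the 10 members, Sp8, Sp6, Fgf8, called pathway genes, 8 pathway genes whether called or not, marker genes, and the 3 genes nearest in pattern to the member with the lowest adjusted p. Kept out of the rule, and named after their values were seen, were Wnt4, Wnt11, Fzd2, Fzd7, Fat1 and Rhoa. Alternatives were other scaling factors, no filter, DESeq2 1.42.0, legacy=TRUE, and libraries left out.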

Additional observations from a re-analysis of the deposited data

How the results depend on the processing

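With 1 library left out in turn, the genes called over the whole table ranged from 194 to 592 lower and from 53 to 332 higher, against 538 and 325 with all 6. Fewer were lower without DKO 40 (210), WT 32 (242) or WT 56 (194), and fewer were higher without DKO 40 (85), WT 32 (71), WT 53 (151) or WT 56 (53). Members called ranged from 0 to 1 lower and from 0 to 1 higher, against 1 and 1 (Celsr2 lost without WT 32 or WT 56, Ror1 without DKO 40, DKO 41, WT 32 or WT 53), and other pathway genes from 1 to 6 lower and from 0 to 1 higher, against 3 and 1. The pathway count was 6 lower without DKO 41 and 1 without WT 56, and 0 were higher without DKO 40, WT 32, WT 53 or WT 56. With no filter on low counts, 296 genes were lower and 116 higher, 0 members and 0 other pathway genes were higher, and Ror1 missed the threshold (log2 fold change 0.98, adjusted p = 0.0735). The DESeq2 Wald test called 984 lower and 753 higher, with 2 members lower (Celsr2, and Vangl1 at -0.54) and 6 pathway genes lower and 2 higher. With legacy=TRUE, 346 genes were lower and 200 higher. Without both WT 32 and DKO 41, 282 were lower and 95 higher, 0 members were lower and 0 higher, and Celsr2 and Ror1 stood at -1.55 and 0.80.

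Ranges with 1 library left out were -1.71 to -1.22 for Celsr2, 0.83 to 1.15 for Ror1, -0.61 to -0.48 for Vangl1, -0.17 to 0.0858 for Vangl2, -1.85 to 0.18 for Celsr3 and -0.10 to 0.015 for Ryk. The sign of Vangl2 and Ryk, whose values lie near 0, turned with upper-quartile factors (0.0353 and 0.0171), and that of Vangl2 also without WT 32 and DKO 41 (0.0724). Celsr1, Prickle1, Prickle2 and Ror2 kept sign and side of the threshold under all 12 alternatives. The differences in share kept their sign with raw counts, coding length or 1 library left out, at -11.6 to -6.62 points for Vangl1, 27.3 to 40.96 for Celsr1, -1.28 to -0.135 for Prickle1 and 13.6 to 19.2 for Ror1. The causes of these differences were not tested. With 3 libraries a group, members whose intervals span 0 may still differ. No paired analysis was possible because the litter of each library is not in the labels.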
